A study of Schizosaccharomyces pombe with 4 samples.

Results

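The left 100 kb of chromosome II of fission yeast (Schizosaccharomyces pombe) holds the telomere-proximal repeats of that arm and the genes inside them. Its members were the tiles of a genome tiling array that are named for chromosome II with a position from 0 to 100000, 275 of 41551 tiles, and they lie between positions 300 and 99900. The array names 82 of them as repeated, that is, with a sequence that also occurs elsewhere in the genome, and 193 carry no such mark. H3K9me3, trimethylated lysine 9 of histone H3, was measured by chromatin immunoprecipitation (ChIP) on 60-mers spaced 300 bp apart, as the log2 ratio of precipitated to whole-cell extract (input) DNA with the median tile of each array set to 0.

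The 4 groups had 1 array each. For clr3-CDx2 OFF and wt OFF, thiamine (5 µg/ml) and tetracycline (2.5 µg/ml) were in the medium for the last 14 generations. The clr3-CDx2 ON and wt ON cells were fixed before that, after 20 generations without thiamine and 5 generations in 850 µg/ml 5-fluoroorotic acid, all in minimal medium at 32 °C. All 4 groups carried tetR-clr4, a fusion of the bacterial Tet repressor to the methyltransferase Clr4. The clr3 gene encodes a histone deacetylase, and the labels do not say what the CDx2 form of it is. With 1 array a group there is no replicate error, no test was made, and a difference between arrays may be technical. The switch comes with a later harvest and with the end of 5-fluoroorotic acid treatment, and these cannot be told apart.

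In fission yeast, Clr4 is the only known H3K9 methyltransferase, and the mark binds the HP1 proteins Swi6 and Chp2 and Clr4 itself, which lets it spread along chromatin from the places where it starts. Clr3 removes acetyl groups from histone H3 and is needed for silencing at centromeres, the mating-type region and telomeres. At the ends of chromosomes I and II heterochromatin starts at the telomere repeats and at homologous subtelomeric sequence, and further in lies a stretch of genes that are mostly kept at low expression during growth. Many of these genes encode transporters and surface proteins.

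The map of repeated tiles was placed on the RefSeq assembly ASM294v3 by the offset at which the names best matched the repeats found there by 31-mers. Tiles up to position 80100 were placed 50 bp inward of their array position, and those from 81300 on at -850 bp (r = 0.936 over 121 tiles). The first offset was fitted on the 167 tiles from 29000 to 80100 (r = 0.846). It was carried over to the tiles further out, where no offset was fitted. Matching the input signal of the same 167 tiles to GC content gave -175 bp instead, so the place of a tile near an edge is not settled. The step of 900 bp lies at a stretch of 100 undetermined bases, II:80202-80301, in the assembly. The build of the array design is not given in the sources used here, so positions below are those of the array unless II or I is written before them. Distance from the chromosome end means array position, and how far the first position lies from the telomere was not measured.

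Most repeated tiles have their other copies at the other ends of chromosomes I and II. Zones were runs of at least 4 tiles of 1 kind. In the outermost zone, 0.3 to 15.6 kb, 97.3% of the 31-mers also occurred at the right end of chromosome II, 71.0% at the left end of chromosome I and 63.2% at the right end of chromosome I. In the next, 15.9 to 27 kb, 94.3% occurred at the left end of I, 40.2% at the right end of II and 0% at the right end of I. The end of the homology to the right end of I is shown because, as tiles were placed, the profile changes there on each array. On ASM294v3, the last of these shared bases is II:15834. The 200 bases around it, II:15735-15934 on the plus strand and I:5559284-5559483 on the minus strand, are printed with capitals for bases in 31-mers that both ends share. Past the capitals lies a stretch made mostly of A at both ends, and the letters beyond it differ.
II left: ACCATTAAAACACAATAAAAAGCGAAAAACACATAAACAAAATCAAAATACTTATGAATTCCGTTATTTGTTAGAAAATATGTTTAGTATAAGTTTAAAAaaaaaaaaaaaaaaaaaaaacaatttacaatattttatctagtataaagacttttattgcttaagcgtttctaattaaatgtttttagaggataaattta
I right: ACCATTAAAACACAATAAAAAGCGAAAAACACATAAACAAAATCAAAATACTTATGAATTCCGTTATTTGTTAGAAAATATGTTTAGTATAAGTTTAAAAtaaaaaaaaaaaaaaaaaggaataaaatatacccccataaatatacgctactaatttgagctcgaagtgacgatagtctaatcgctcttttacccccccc

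Among the repeated zones further in, the one at 76.2 to 77.1 kb lies at a single protein-coding gene. SPBPB21E7.09 (II:76296-77625), annotated as an L-asparaginase, which splits asparagine into aspartate and ammonia, has a near copy at the right end of I, SPAC186.03 (I:5535179-5536432). Their coding sequences are 98.6% identical over 1083 bases and share 806 of their 31-mers. A pair of more distant relatives, SPBPB8B6.05c (II:54322-55567) and SPAC977.12 (I:56492-57736), is 72.0% identical to SPBPB21E7.09 and shares 0 31-mers with it. The middle 120 coding bases of these genes are printed, and capitals mark bases that differ from SPBPB21E7.09.
SPBPB21E7.09: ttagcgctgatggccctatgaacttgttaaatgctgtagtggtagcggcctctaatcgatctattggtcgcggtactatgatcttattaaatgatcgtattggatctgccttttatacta
SPAC186.03: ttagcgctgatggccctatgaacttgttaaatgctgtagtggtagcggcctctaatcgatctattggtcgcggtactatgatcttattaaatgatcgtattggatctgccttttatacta
SPBPB8B6.05c: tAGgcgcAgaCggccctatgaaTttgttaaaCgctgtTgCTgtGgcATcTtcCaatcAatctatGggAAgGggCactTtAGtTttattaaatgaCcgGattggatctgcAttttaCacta
SPAC977.12: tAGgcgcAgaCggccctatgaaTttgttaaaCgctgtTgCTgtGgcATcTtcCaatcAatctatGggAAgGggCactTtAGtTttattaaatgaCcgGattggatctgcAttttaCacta

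The antibody signal over the array was checked at the pericentromeres, where H3K9me3 is a defining mark. Their 282 tiles had medians of 5.33 in clr3-CDx2 OFF, 3.86 in clr3-CDx2 ON, 5.52 in wt OFF and 4.83 in wt ON. Unique tiles outside the outer 100 kb of chromosomes I and II had lower quartiles from -0.76 to -0.63 and upper quartiles from 0.57 to 0.68 over the 4 arrays, so a level below 1 does not stand out from the rest of the genome by itself. Spots marked as non-uniform were left out, from 190 to 578 of all tiles on an array, and among the members 4 in clr3-CDx2 OFF, 1 in clr3-CDx2 ON, 0 in wt OFF and 1 in wt ON. Over the members the input spots were at the median 388 to 416 times as bright as their local background and the ChIP spots 96.6 to 133 times, and 0 members were not well above it.

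The outermost zone had the highest median H3K9me3 of the 9 zones in clr3-CDx2 ON, wt OFF and wt ON, and in clr3-CDx2 OFF it stood level with 4 repeated tiles near 76 kb. Over its 38 tiles the median level was 3.69 in clr3-CDx2 OFF, 2.13 in clr3-CDx2 ON, 1.85 in wt OFF and 1.16 in wt ON. The tiles ran from 2.20 to 4.61 in clr3-CDx2 OFF, from 0.91 to 2.70 in clr3-CDx2 ON, from 1.24 to 2.83 in wt OFF and from 0.61 to 1.91 in wt ON. All tiles of clr3-CDx2 OFF lay above all those of wt ON, and the other ranges overlap. The level did not decline steadily from the chromosome end: in wt ON the bin from 5 to 10 kb had a median of 1.71, against 1.04 from 0 to 5 kb and 1.11 from 10 to 15 kb. In clr3-CDx2 ON the same bins read 2.39, 1.80 and 2.30. The stretch shared with the right end of I starts at II:5214, so the bins differ in the copies they match. A change of copies and a change with distance from the end cannot be told apart there.

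The zone was higher after the switch in both genotypes. It was higher in clr3-CDx2 OFF by a median of 1.58 over clr3-CDx2 ON (2.99-fold), in 35 of 35 tiles measured on both arrays and by 1.30 to 2.12. It was higher in wt OFF by 0.77 over wt ON (1.70-fold), in 38 of 38 tiles and by 0.45 to 1.01. Between genotypes it was higher in clr3-CDx2 OFF by 1.67 over wt OFF (3.18-fold, 35 of 35 tiles) and by 0.83 in clr3-CDx2 ON than in wt ON (1.78-fold, 38 of 38). The 4 comparisons share arrays and are not independent of each other. The pericentromeres also differed between clr3-CDx2 OFF and clr3-CDx2 ON, at 5.33 in clr3-CDx2 OFF and 3.86 in clr3-CDx2 ON. With all arrays scaled to the same pericentromeric median, clr3-CDx2 OFF minus clr3-CDx2 ON was 0.75 at ftm5, 0.91 at SPBC1348.04 and 0.48 at SPBC1348.05, genes of this zone that without scaling differed by 1.76 (ftm5), 1.86 (SPBC1348.04) and 1.47 (SPBC1348.05).

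Both channels contributed to these ratios. With each channel set to its own array median, the input of this zone read -0.96 in clr3-CDx2 OFF, -0.24 in clr3-CDx2 ON, 0.01 in wt OFF and 0.26 in wt ON. The ChIP signal read 2.80 in clr3-CDx2 OFF, 1.91 in clr3-CDx2 ON, 1.99 in wt OFF and 1.44 in wt ON. On the ChIP channel alone, clr3-CDx2 OFF was higher than clr3-CDx2 ON by 0.86 and than wt OFF by 0.81, about as much as the input was lower (-0.70 and -0.87). In wt, the ChIP signal was higher in OFF than in ON by 0.55 and the input lower by 0.21 (-0.21). The part of the input in the result was not tested.

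**Figure D1:**
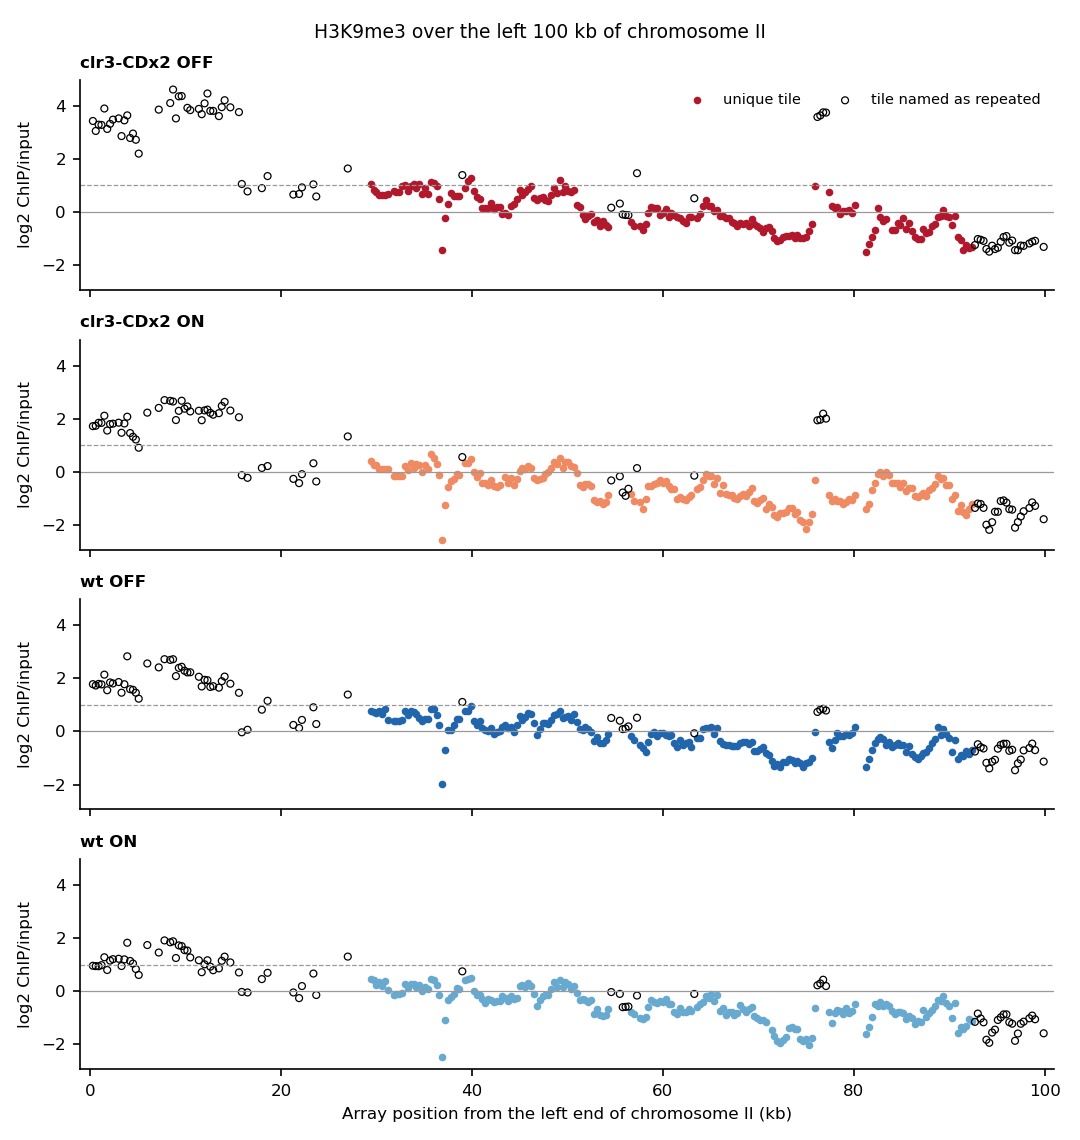
log2 ChIP over input of each tile (y axis) against its array position in kb from the left end (x axis), with 1 panel for each array. Filled points are unique tiles, open circles tiles named as repeated, and the dashed line marks a level of 1. The outer 15.6 kb stands out, and unique tiles stay below 1 except 9 in clr3-CDx2 OFF. The 4 repeated tiles near 76 kb lie above 1 in clr3-CDx2 OFF and clr3-CDx2 ON and below 1 in wt OFF and wt ON.

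Domains were called where 5 or more successive tiles, smoothed by the median of 3, stood at 1 or higher, and 1 lower tile within a run was tolerated. In clr3-CDx2 OFF 1 domain ran from position 300 to 15900 and covered 15.9 kb, with a median of 3.66. In clr3-CDx2 ON 1 domain ran from 300 to 15600 and covered 15.6 kb, with a median of 2.13. In wt OFF 1 domain had the same ends, 300 and 15600, and a median of 1.85. In wt ON the same stretch broke into 2 domains, from 1800 to 4500 (3.0 kb, median 1.15) and from 6000 to 12300 (6.6 kb, median 1.53). Every tile of these domains is a repeated one, and with repeated tiles left out no domain was found on any array.

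The inner edge was a step between neighbouring tiles. At position 15600 the level was 3.76 in clr3-CDx2 OFF, 2.05 in clr3-CDx2 ON, 1.46 in wt OFF and 0.71 in wt ON. At position 15900 it was 1.06 in clr3-CDx2 OFF, -0.13 in clr3-CDx2 ON, -0.03 in wt OFF and -0.03 in wt ON. The step was -2.71 in clr3-CDx2 OFF, -2.18 in clr3-CDx2 ON, -1.49 in wt OFF and -0.73 in wt ON. As the tiles were placed, it falls where the printed sequences of II left and I right part. No offset was fitted on tiles this far out. A tile that matches several ends reports all of them, so a change in the copies it matches and a change of H3K9me3 on chromosome II cannot be told apart here.

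The zone from 15.9 to 27 kb, still repeated at the left end of I, had 10 tiles with a median of 0.91 in clr3-CDx2 OFF, -0.11 in clr3-CDx2 ON, 0.36 in wt OFF and 0.08 in wt ON. Its tiles were uneven, and the innermost of them, at 27000, read 1.64 in clr3-CDx2 OFF, 1.33 in clr3-CDx2 ON, 1.39 in wt OFF and 1.30 in wt ON. Relative to clr3-CDx2 ON, clr3-CDx2 OFF was higher by 0.98 (10 of 10 tiles), and relative to wt ON, wt OFF was higher by 0.27 (9 of 10). It was lower in clr3-CDx2 ON than in wt ON, with a median of -0.22 and 1 of 10 tiles higher. The input differed little here, by -0.13 between clr3-CDx2 OFF and clr3-CDx2 ON.

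The other copies of the outermost zone carried similar levels on their own tiles. The 26 tiles at I:5559673-5569848 had medians of 4.02 in clr3-CDx2 OFF, 2.38 in clr3-CDx2 ON, 2.28 in wt OFF and 1.35 in wt ON. The 43 tiles at I:21576-35227 read 3.56 in clr3-CDx2 OFF, 2.04 in clr3-CDx2 ON, 2.01 in wt OFF and 1.27 in wt ON. The 29 tiles at II:4497574-4514495 read 3.77 in clr3-CDx2 OFF, 2.35 in clr3-CDx2 ON, 2.05 in wt OFF and 1.31 in wt ON. These tiles share sequence with the left end of II, so their likeness is no independent measurement. The unique tiles next to the copies differed more. The 9 unique tiles within 3 kb of the copy at the right end of I read 4.45 in clr3-CDx2 OFF, 2.85 in clr3-CDx2 ON, 1.82 in wt OFF and 0.77 in wt ON. At the left end of II no unique tile lies that close, and the first ones, at 29400 to 30000, had levels from 0.75 to 1.05 in clr3-CDx2 OFF, from 0.24 to 0.40 in clr3-CDx2 ON, from 0.71 to 0.77 in wt OFF and from 0.25 to 0.46 in wt ON.

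The unique tiles from 29.4 to 51 kb formed a low shelf, 71 tiles with a median of 0.67 in clr3-CDx2 OFF, 0.01 in clr3-CDx2 ON, 0.43 in wt OFF and 0.08 in wt ON. At 1 or more stood 9 of them in clr3-CDx2 OFF and 0 on the other arrays. The difference after the switch was positive along the whole shelf. It was 0.65 in clr3-CDx2, positive in 70 of 70 tiles with the lowest at 0.18 and the highest at 1.15, and 0.39 in wt, positive in 71 of 71 tiles with the lowest at 0.21 and the highest at 0.55. Between genotypes the shelf differed by 0.23 in OFF cells, with 65 of 71 tiles higher in clr3-CDx2, and by -0.03 in ON cells, with 26 of 70 higher in clr3-CDx2. In the unique tiles outside the chromosome ends, clr3-CDx2 OFF minus clr3-CDx2 ON had a median of 0.05 with quartiles of -0.12 and 0.24. There, wt OFF minus wt ON had 0.03 (-0.09 and 0.17), clr3-CDx2 OFF minus wt OFF 0.02 (-0.16 and 0.19), and clr3-CDx2 ON minus wt ON 0.00 (-0.14 and 0.13). The wt difference of the shelf lies above the upper quartile in each of its tiles. The median tile sets the 0 of each array, and with the mode of the ratios as 0 every OFF minus ON difference given here is larger, since the mode lies above the median by 0.06 in clr3-CDx2 OFF, 0.24 in clr3-CDx2 ON, 0.06 in wt OFF and 0.24 in wt ON.

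A notch lay within the shelf at 36900, where the level was -1.45 in clr3-CDx2 OFF, -2.57 in clr3-CDx2 ON, -1.99 in wt OFF and -2.48 in wt ON. The neighbour at 36600 read 0.48 in clr3-CDx2 OFF, -0.13 in clr3-CDx2 ON, 0.26 in wt OFF and -0.13 in wt ON. On ASM294v3 the tile falls outside coding sequence, and the 300 bases around it hold 21% G and C, the lowest share of the 71 tiles of the shelf. Within the shelf the level went with base composition. Spearman's rho between level and GC content of the surrounding 300 bases was 0.42 in clr3-CDx2 OFF, 0.56 in clr3-CDx2 ON, 0.49 in wt OFF and 0.52 in wt ON over 70 or 71 tiles, which share their array and their genes. Shelf tiles wholly in coding sequence had medians of 0.84 in clr3-CDx2 OFF, 0.20 in clr3-CDx2 ON, 0.60 in wt OFF and 0.21 in wt ON (30 tiles). Tiles outside it had 0.54 in clr3-CDx2 OFF, -0.20 in clr3-CDx2 ON, 0.25 in wt OFF and -0.16 in wt ON (37 tiles). The differences between arrays did not show this contrast: clr3-CDx2 OFF minus clr3-CDx2 ON was 0.64 in coding and 0.68 in non-coding tiles, and wt OFF minus wt ON was 0.38 in coding and 0.40 in non-coding tiles.

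**Figure D2:**
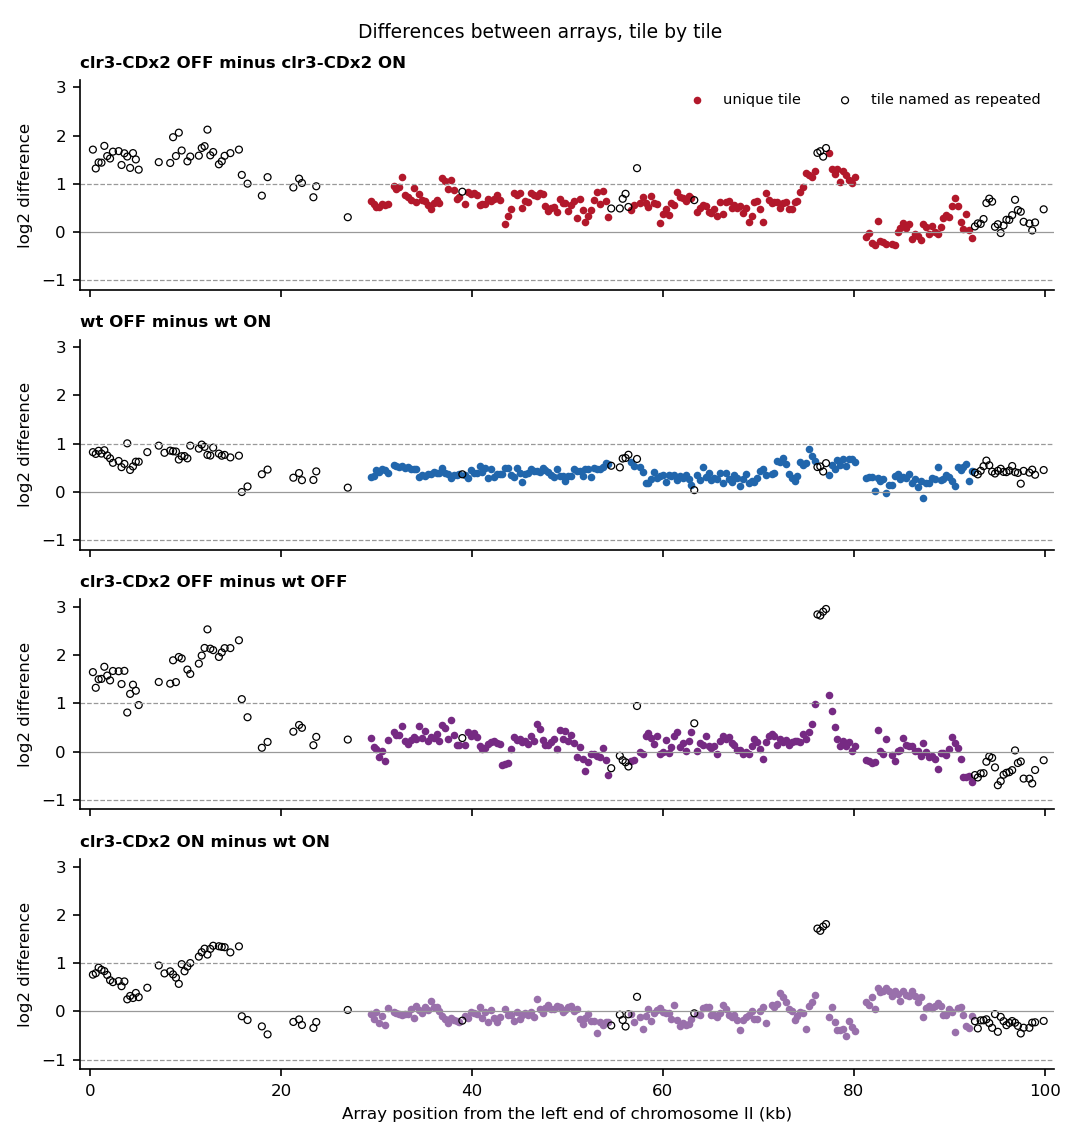
Difference in log2 ChIP over input of each tile (y axis) against its array position in kb from the left end (x axis), 1 panel for each pair of arrays. Filled points are unique tiles, open circles repeated ones, and dashed lines mark differences of 1 and -1; the OFF minus ON difference of clr3-CDx2 stays above 0 up to 80.1 kb and has a median of 0.04 from 81.3 to 92.4 kb and 0.23 further in, while that of wt has a median between 0.27 and 0.77 in each zone.

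Inward of the shelf the level declined. The unique tiles from 51.3 to 80.1 kb had medians of -0.26 in clr3-CDx2 OFF, -0.98 in clr3-CDx2 ON, -0.41 in wt OFF and -0.79 in wt ON. The lowest 5-kb bin of this stretch was 70 to 75 kb, 17 unique tiles at -0.90 in clr3-CDx2 OFF, -1.53 in clr3-CDx2 ON, -1.15 in wt OFF and -1.58 in wt ON. This is below the lower quartile of the unique tiles outside the chromosome ends, which was -0.71 in clr3-CDx2 OFF, -0.76 in clr3-CDx2 ON, -0.63 in wt OFF and -0.70 in wt ON. The differences after the switch persisted where the level was low. They were 0.61 in clr3-CDx2, positive in 84 of 84 tiles, and 0.37 in wt, positive in 83 of 83. A short repeated zone at 54.6 to 56.4 kb, also found at the left end of I, did not stand out, with medians over 5 tiles of -0.09 in clr3-CDx2 OFF, -0.64 in clr3-CDx2 ON, 0.19 in wt OFF and -0.58 in wt ON.

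Within this low stretch 4 repeated tiles at 76200 to 77100 stood far above their neighbours. They cover the asparaginase gene SPBPB21E7.09 apart from its inner end. Their levels were 3.58, 3.64, 3.75 and 3.75 in clr3-CDx2 OFF, against 1.94, 1.96, 2.19 and 2.00 in clr3-CDx2 ON. In wt they were 0.74, 0.82, 0.85 and 0.79 in OFF and 0.22, 0.29, 0.43 and 0.19 in ON. At these tiles the 4 arrays do not overlap. Their order is clr3-CDx2 OFF, clr3-CDx2 ON, wt OFF and wt ON from high to low, as it is for the medians of the outermost zone. The median difference was 2.87 between clr3-CDx2 OFF and wt OFF (7.32-fold), 1.74 between clr3-CDx2 ON and wt ON (3.33-fold), 1.66 between clr3-CDx2 OFF and ON (3.16-fold) and 0.52 between wt OFF and ON (1.43-fold). With all arrays scaled to the same pericentromeric median, SPBPB21E7.09 differed by 0.87 between clr3-CDx2 OFF and clr3-CDx2 ON, against 1.71 without scaling. The genotype differences were the largest of any zone of the left 100 kb.

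The unique tiles in and around the gene did not share this level. The tile next to it on the outer side, at 75900, read 0.98 in clr3-CDx2 OFF, -0.29 in clr3-CDx2 ON, 0.00 in wt OFF and -0.64 in wt ON, and the next one out, at 75600, read -0.44 in clr3-CDx2 OFF, -1.58 in clr3-CDx2 ON, -1.01 in wt OFF and -1.76 in wt ON. The unique tile at 77400 was placed within the gene, near its inner end. It read 0.76 in clr3-CDx2 OFF, -0.88 in clr3-CDx2 ON, -0.41 in wt OFF and -0.77 in wt ON. Fragments were sheared to about 1000 bp, so these unique tiles share fragments with the repeated ones in part. The 20 unique tiles within 3 kb of the 4 repeated ones had medians of -0.05 in clr3-CDx2 OFF, -1.19 in clr3-CDx2 ON, -0.52 in wt OFF and -1.03 in wt ON. The 19 unique tiles within 3 kb of the near copy at the right end of I had 4.34 in clr3-CDx2 OFF, 2.60 in clr3-CDx2 ON, 0.99 in wt OFF and 0.36 in wt ON, near or above the level of the repeated tiles themselves. The array names these tiles as repeated and the printed bases of both copies are the same, but 1068 rather than all of the 1083 coding bases agree and the probe sequences were not used here, so the signal at SPBPB21E7.09 cannot be assigned to chromosome II. The related gene SPBPB8B6.05c, chosen for its sequence after values were seen, read -0.20 in clr3-CDx2 OFF, -0.60 in clr3-CDx2 ON, 0.22 in wt OFF and -0.34 in wt ON over 2 tiles, 1 of them repeated.

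The input channel moved here too. Over the 4 tiles it read -0.99 in clr3-CDx2 OFF, -0.22 in clr3-CDx2 ON, 0.35 in wt OFF and 0.43 in wt ON. The ChIP channel alone read 2.61 in clr3-CDx2 OFF, 1.79 in clr3-CDx2 ON, 1.09 in wt OFF and 0.71 in wt ON. It was higher in clr3-CDx2 OFF by 1.52 over wt OFF and by 1.06 in clr3-CDx2 ON than in wt ON. In the unique tiles from 77.4 to 80.1 kb the input varied from -0.37 to -0.21 over the 4 arrays. The part of the lower input in the ratio at the gene was not tested.

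**Figure D3:**
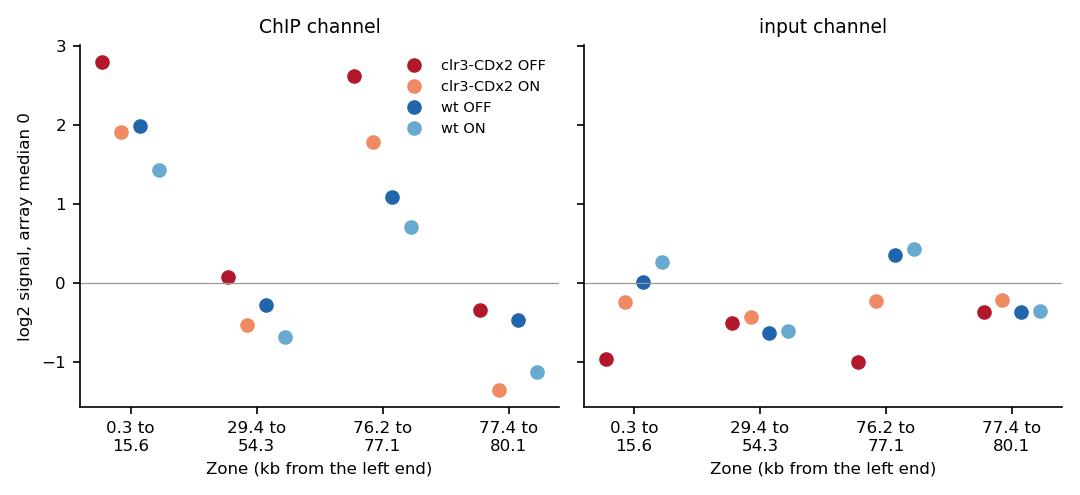
Median log2 signal of the ChIP channel (left) and of the input channel (right) in 4 zones, each channel with its array median at 0 (y axis) and 1 point for each array. In the zones of repeated tiles at 0.3 to 15.6 and 76.2 to 77.1 kb the ChIP signal is highest and the input lowest in clr3-CDx2 OFF, while in the zones at 29.4 to 54.3 and 77.4 to 80.1 kb the input reads from -0.63 to -0.42 and from -0.37 to -0.21 over the arrays.

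Of the unique zones, the short one inward of the repeated asparaginase tiles had the largest median difference after the switch in clr3-CDx2. From 77.4 to 80.1 kb, 10 unique tiles had medians of 0.12 in clr3-CDx2 OFF, -1.08 in clr3-CDx2 ON, -0.15 in wt OFF and -0.75 in wt ON. The clr3-CDx2 difference was 1.19 (2.29-fold), from 1.02 to 1.64, and the wt difference 0.59, from 0.36 to 0.69. The input of these tiles differed by -0.14 between clr3-CDx2 OFF and ON, and the ChIP channel alone by 1.04. In ON cells clr3-CDx2 was lower than wt over the same tiles, by a median of -0.34 with 1 of 10 tiles higher, and in OFF cells higher by 0.21 in 10 of 10.

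The difference in clr3-CDx2 dropped at the gap of the assembly. At 80100, the last tile before it, clr3-CDx2 OFF read 0.27 and clr3-CDx2 ON -0.88. At 81300, the first tile after it, clr3-CDx2 OFF read -1.50 and clr3-CDx2 ON -1.41. The 38 unique tiles from 81.3 to 92.4 kb had medians of -0.64 in clr3-CDx2 OFF, -0.61 in clr3-CDx2 ON, -0.57 in wt OFF and -0.82 in wt ON. In clr3-CDx2 the difference after the switch was 0.04, positive in 21 of 37 tiles, and reached 0.72 at 90600. In wt it was 0.27, positive in 36 of 38. Whether the 2 genotypes differ in this was not tested, as each has 1 array per state. The number of bases missing from the assembly at the gap is unknown, so the distance between both tiles is not known either.

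From 92.7 to 99.9 kb, 22 repeated tiles lie in and between near-identical tandem copies of a transporter gene, all within the left arm of chromosome II. Their medians were -1.21 in clr3-CDx2 OFF, -1.42 in clr3-CDx2 ON, -0.71 in wt OFF and -1.16 in wt ON, at or below the lower quartile of the unique tiles outside the chromosome ends. These are repeated tiles without enrichment, and their copies are not at another chromosome end. Against wt OFF they were lower in clr3-CDx2 OFF, with a difference of -0.43 and 1 of 22 tiles higher, and against wt ON lower in clr3-CDx2 ON, with -0.24 and 0 of 22 higher. The difference after the switch was 0.23 in clr3-CDx2 (21 of 22 tiles) and 0.43 in wt (22 of 22).

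**Figure D4:**
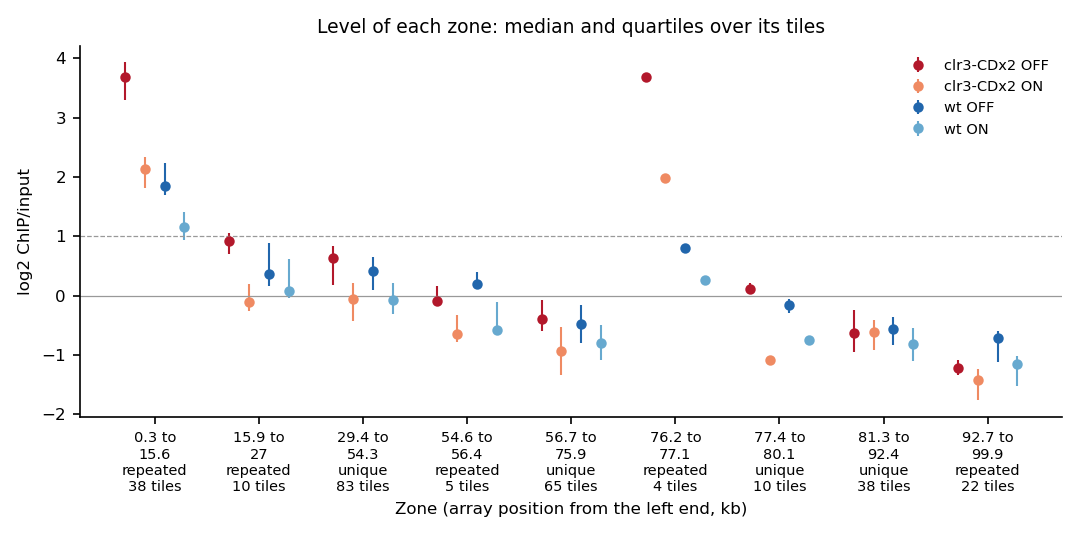
Median log2 ChIP over input (points) and quartiles over the tiles (bars) of the 9 zones in order from the chromosome end (x axis), for the 4 arrays. The bars show the spread over tiles of 1 array and are no replicate error; clr3-CDx2 OFF reads 3.69 in both the outermost zone and the zone at 76.2 to 77.1 kb, and the zones between them read below 1 on each array.

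Over the left 100 kb as a whole, the share of enriched tiles was close to that of the whole array on most arrays. At 1 or more stood 54 of 271 members in clr3-CDx2 OFF, 42 of 274 in clr3-CDx2 ON, 41 of 275 in wt OFF and 26 of 274 in wt ON. Of all tiles, 16.6% in clr3-CDx2 OFF, 14.9% in clr3-CDx2 ON, 13.4% in wt OFF and 12.8% in wt ON did so, and the members' shares in 3 of the 4 arrays are near or below the background. Higher by at least 1 in clr3-CDx2 OFF than in clr3-CDx2 ON were 63 of 270 members, against 3.06% of all tiles. In wt OFF against wt ON it was 1 of 274, against 1.13% of all tiles. In clr3-CDx2 OFF against wt OFF it was 39 of 271, against 1.31%, and in clr3-CDx2 ON against wt ON 16 of 273, against 0.491%. Lower by at least 1 were 0 members in each of the 4 comparisons, while of all tiles 0.774% were in clr3-CDx2 OFF against ON, 0.753% in wt OFF against ON, 0.727% in clr3-CDx2 OFF against wt OFF and 0.907% in clr3-CDx2 ON against wt ON.

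Most of the members past this fold are repeated tiles. Of the 63 between clr3-CDx2 OFF and ON, 18 are unique, with 4 between 32700 and 37800, 4 from 75000 to 75900 and 10 from 77400 to 80100. Of the 39 between clr3-CDx2 OFF and wt OFF, 1 is unique, at 77400 near the inner end of the asparaginase gene. Of the 16 between clr3-CDx2 ON and wt ON none is unique (0 tiles). The median difference over all members was 0.62 between clr3-CDx2 OFF and ON, 0.41 between wt OFF and ON, 0.20 between clr3-CDx2 OFF and wt OFF and -0.03 between clr3-CDx2 ON and wt ON. Over the 193 unique members alone the medians were 0.59 for clr3-CDx2 OFF minus ON, 0.37 for wt OFF minus ON, 0.16 for clr3-CDx2 OFF minus wt OFF and -0.04 for clr3-CDx2 ON minus wt ON.

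Of 35 protein-coding genes and pseudogenes placed in the stretch, 27 had at least 2 tiles, and 4 of these are pseudogenes. The genes highest in H3K9me3 lie in the outermost zone. The gene ftm5 (II:7980-9457), which encodes a protein with transmembrane helices, read 4.23 in clr3-CDx2 OFF, 2.47 in clr3-CDx2 ON, 2.55 in wt OFF and 1.78 in wt ON over 4 tiles. SPBC1348.04 (II:12176-12750), annotated as a methyltransferase, read 4.14 in clr3-CDx2 OFF, 2.28 in clr3-CDx2 ON, 1.80 in wt OFF and 1.04 in wt ON over 2 tiles. SPBC1348.05 (II:13572-15378), annotated as a transporter, read 3.95 in clr3-CDx2 OFF, 2.48 in clr3-CDx2 ON, 1.89 in wt OFF and 1.15 in wt ON over 3 tiles. All tiles in these genes are repeated, and clr3-CDx2 OFF was above each other array at all 3 genes.

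Transporters make up much of what lies further in. Of the 27 genes, 9 are annotated as transporters or permeases, SPBC1348.05 among them. The hexose transporter gene ght7 (II:38514-40143), of the family that imports sugars, read 1.16 in clr3-CDx2 OFF, 0.33 in clr3-CDx2 ON, 0.78 in wt OFF and 0.47 in wt ON over 5 tiles. The transporter pseudogene SPBC1348.11 (II:33231-34780) read 0.99 in clr3-CDx2 OFF, 0.25 in clr3-CDx2 ON, 0.65 in wt OFF and 0.22 in wt ON. The urea transporter gene SPBPB8B6.02c (II:44694-46831) read 0.76 in clr3-CDx2 OFF, 0.12 in clr3-CDx2 ON, 0.54 in wt OFF and 0.18 in wt ON. At these 3 shelf genes clr3-CDx2 OFF was highest and wt OFF next. The cysteine transporter gene SPBPB10D8.01 (II:81018-83357), beyond the gap, read -0.34 in clr3-CDx2 OFF, -0.14 in clr3-CDx2 ON, -0.43 in wt OFF and -0.55 in wt ON. The transporter pseudogene SPBPB10D8.03 read -0.16 in clr3-CDx2 OFF, -0.25 in clr3-CDx2 ON, 0.00 in wt OFF and -0.35 in wt ON.

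The tandem transporter genes SPBPB10D8.04c, SPBPB10D8.05c and SPBPB10D8.06c were low, from -1.12 to -1.03 in clr3-CDx2 OFF, -1.28 to -1.13 in clr3-CDx2 ON, -0.64 to -0.48 in wt OFF and -1.11 to -0.93 in wt ON. Over the 9 transporters, wt OFF was higher than wt ON in 9 and clr3-CDx2 OFF higher than clr3-CDx2 ON in 8. The median differences were 0.40 in wt and 0.17 in clr3-CDx2. In clr3-CDx2 the transporters before the gap of the assembly differed by 0.64 to 1.47 and those beyond it by -0.20 to 0.17. Of the unique tiles outside the ends, counted tile by tile and not by gene, 56.8% were higher in wt OFF and 57.3% in clr3-CDx2 OFF. The 1 transporter that was not higher after the switch in clr3-CDx2 is SPBPB10D8.01, at -0.20. The glycoprotein gene SPBC1348.08c (II:22111-23529), of a class found at the cell surface, read 0.99 in clr3-CDx2 OFF, 0.11 in clr3-CDx2 ON, 0.67 in wt OFF and 0.43 in wt ON over 2 repeated tiles.

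The gene SPBPB21E7.09 read 3.69 in clr3-CDx2 OFF, 1.98 in clr3-CDx2 ON, 0.80 in wt OFF and 0.24 in wt ON as the median of the 4 tiles within it, 3 of them repeated. The other 14 genes ranged from -0.93 to 0.98 in clr3-CDx2 OFF, -1.54 to 0.31 in clr3-CDx2 ON, -1.15 to 0.61 in wt OFF and -1.79 to 0.22 in wt ON. Each of the 14 was higher in OFF than in ON in both genotypes, by 0.09 to 0.81 in clr3-CDx2 and by 0.29 to 0.69 in wt. Between genotypes they ranged from -0.41 to 0.37 in OFF cells and from -0.26 to 0.28 in ON cells. The 26 non-coding RNA genes with at least 2 tiles ranged from -1.25 to 4.36 in clr3-CDx2 OFF and from -1.79 to 1.71 in wt ON. Those at 1 or more all hold a repeated tile. The 12 without a repeated tile ranged from -1.02 to 0.99 in clr3-CDx2 OFF and from -1.79 to 0.27 in wt ON. The difference between clr3-CDx2 OFF and clr3-CDx2 ON reached 1.88 over the 26 and 1.26 over the 12. The galactose cluster gal7, gal10 and gal1 and the transport genes frp1, abc3 and pcl1 are not in the stretch (0 of 6).

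**Figure D5:**
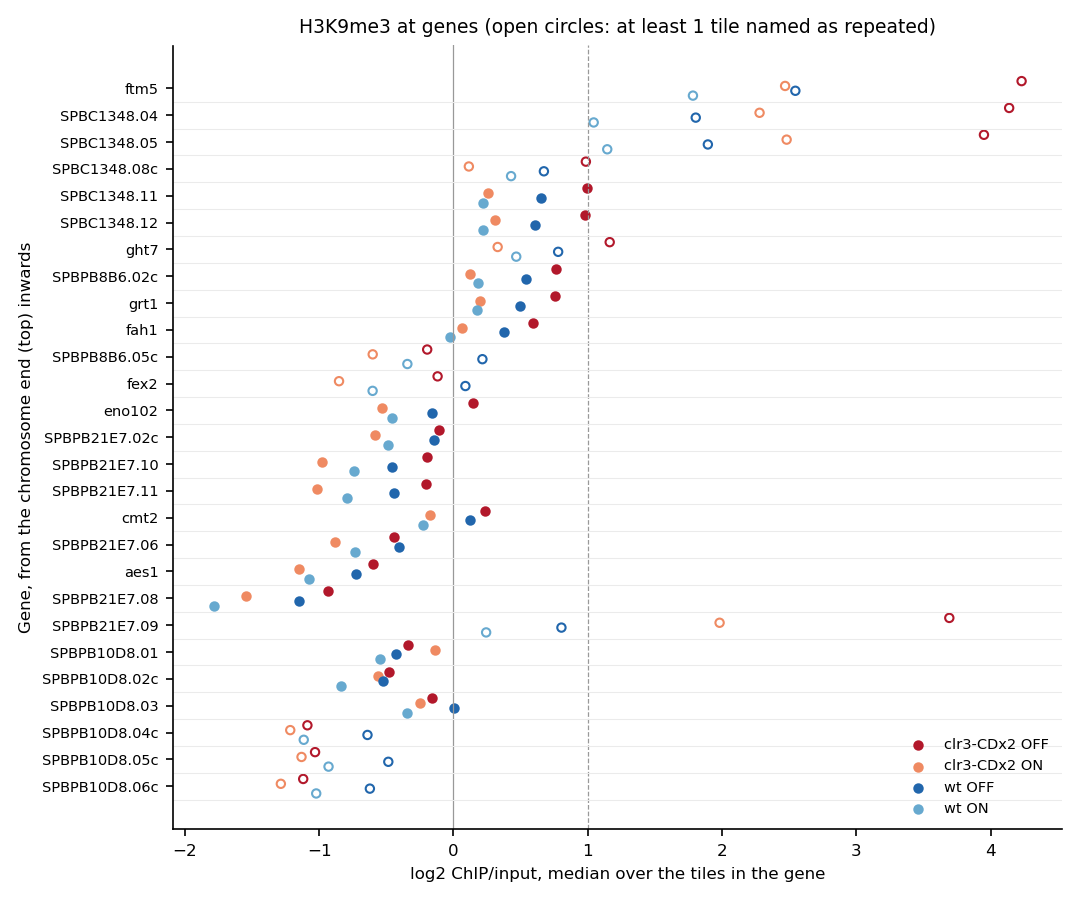
log2 ChIP over input of the 27 genes with at least 2 tiles, as the median over the tiles in each gene (x axis), ordered from the chromosome end at the top inwards (y axis), with 1 point for each array. Open circles are genes with a repeated tile, and the dashed line marks a level of 1; apart from ght7 in clr3-CDx2 OFF, the genes at 1 or more are the 3 of the outermost zone and SPBPB21E7.09.

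On each array, the left end of II had less of its length covered by domains than either end of I. The same held for the right end of II. The unique tiles of the outer 100 kb at the left end of II had medians of -0.09 in clr3-CDx2 OFF, -0.51 in clr3-CDx2 ON, -0.14 in wt OFF and -0.49 in wt ON. Those of the right end of II had -0.14 in clr3-CDx2 OFF, -0.61 in clr3-CDx2 ON, 0.09 in wt OFF and -0.42 in wt ON. Those of the left end of I had 0.24 in clr3-CDx2 OFF, -0.36 in clr3-CDx2 ON, -0.01 in wt OFF and -0.31 in wt ON, and those of the right end of I 1.31 in clr3-CDx2 OFF, 0.68 in clr3-CDx2 ON, 0.51 in wt OFF and 0.00 in wt ON. Domains covered 15.9 kb in clr3-CDx2 OFF, 15.6 kb in clr3-CDx2 ON, 15.6 kb in wt OFF and 9.6 kb in wt ON at the left end of II. At the right end of I they covered 66.6 kb in clr3-CDx2 OFF, 54.0 kb in clr3-CDx2 ON, 40.8 kb in wt OFF and 24.3 kb in wt ON, and at the left end of I from 36.9 to 46.2 kb. The right end of I also holds the near copy of the asparaginase gene. As the tiles were placed, homology of the right end of I to the left end of II stops at the step at 15.6 kb. That of the left end of I and the right end of II runs further in.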

How the data were processed

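Precipitated DNA (Cy5) and input DNA (Cy3) of 4 cultures were hybridised together to 1 array each. Per the file headers, the authors made the scanner files with Agilent Feature Extraction 12.0.3.1, and the intensity of each spot is given per channel, background-subtracted and dye-normalised by a linear factor in the processed signal. The deposited series matrix holds the log2 ratio of both processed signals, uncentred, and equalled the ratio computed here on each tile. From it the median tile of each array was subtracted, with no loess or quantile step, and spots marked as non-uniform were left out.

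Levels are medians over tiles and differences are medians of tile differences. With 1 array per group no test was made, a move of at least 1 (2-fold) on the log2 scale was the fold rule, so precision is limited by there being so few arrays. Tiles were placed on ASM294v3 with 31-mers, and genes were measured by the median of at least 2 tiles wholly within them. A zone was named after the kind of at least 4 successive tiles, shorter runs joined the unique zone beside them, and the first zone was split where sharing with the right end of I stops. The members, gene lists and naming rule were chosen with earlier results of these data known, and the inner end of the shelf at 51 kb was set by eye. Named genes are those with a median of at least 1 on an array, a difference of at least 1, or annotation as galactose, metal, sugar or other transport or surface protein genes (13 genes); non-coding RNA genes are given by their range. The 14 alternatives cover spot marks, centring, background correction, the ChIP channel alone, scaling to the pericentromeres, repeated and low-input tiles and the domain rule. The normexp alternative used the median spot signal, since the files used here hold no mean. The domain rule was tested on simulated tiles, evenly spaced and with independent noise, which does not measure how it does on the unevenly spaced real ones. Python 3.11.15, numpy 2.4.6, pandas 2.3.3, R 4.3.3 and limma 3.58.1 were used.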

Additional observations from a re-analysis of the deposited data

Results flagged for a closer look

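From 80 to 90 kb the median differences of the 31 tiles have opposite signs in the 2 genotypes. In clr3-CDx2 the difference between OFF and ON was -0.0018, which is close to 0, and in wt it was 0.264. With the mode of the ratios as 0 in place of the median, both are positive. The difference between the genotypes was not tested, as each state has 1 array.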

How the results depend on the processing

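Without replicates, no result has a test, and no paired analysis was possible because each group has 1 array. The length covered by domains depended most on tiles and cut: with repeated tiles left out it was 0 kb on each array. For clr3-CDx2 OFF it was 31.8 kb without centring, 33.6 kb with normexp, 45.0 kb at a cut of 1.5-fold and 24.0 kb with runs of at least 3 tiles, against 15.9 kb. For wt OFF it was 24.6 kb at 1.5-fold. For wt ON it was 4.8 kb with centring on the mode, 14.7 kb without centring, 15.6 kb at 1.5-fold and 2.7 kb at 3-fold, against 9.6 kb. The median difference between clr3-CDx2 OFF and ON was 0.806 with centring on the mode, 0.512 without centring, 0.717 with normexp, 0.551 on the ChIP channel alone, 0.699 with pericentromeric scaling, 0.589 without repeated tiles and 0.565 without low-input tiles. Between wt OFF and ON it was 0.589 on the mode, 0.345 without centring, 0.462 with normexp, 0.350 on the ChIP channel and 0.371 without repeated tiles. Between clr3-CDx2 OFF and wt OFF it was 0.241 on the ChIP channel and 0.141 without low-input tiles. Between clr3-CDx2 ON and wt ON, where it was -0.03, it was 0.0304 without centring, 0.0122 with normexp, 0.0686 on the ChIP channel and -0.133 with pericentromeric scaling, so its direction is not settled. Counts of tiles higher by at least 1 fell most where repeated or low-input tiles were left out or the ChIP channel was used alone. For clr3-CDx2 OFF against ON they were 20 on the ChIP channel, 18 without repeated and 24 without low-input tiles, against 63. For clr3-CDx2 OFF against wt OFF they were 14, 1 and 9 under these settings, against 39. For clr3-CDx2 ON against wt ON they were 3, 0 and 1, and 36 with pericentromeric scaling, against 16. For wt OFF against ON they were 0 under these settings and without centring, 15 on the mode and 18 with normexp, against 1. A tile lower by at least 1 appeared between clr3-CDx2 ON and wt ON with all spots kept and with normexp (1 each), and between wt OFF and wt ON with all spots kept (1). Of the gene differences recomputed, 353 kept their side of the fold rule and 19 did not, and none that passed it changed sign. All 4 genes past the rule between clr3-CDx2 OFF and ON lost the call on the ChIP channel alone, at 0.812 (ftm5), 0.781 (SPBC1348.04), 0.851 (SPBC1348.05) and 0.932 (SPBPB21E7.09), and with pericentromeric scaling, at 0.750, 0.906, 0.479 and 0.874 for the same genes. On the ChIP channel ftm5, SPBC1348.04 and SPBC1348.05 lost it between clr3-CDx2 OFF and wt OFF, and SPBC1348.04 and SPBC1348.05 between clr3-CDx2 ON and wt ON. The cause of these changes was not tested beyond what each setting removes.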
